A study of Arabidopsis thaliana with 24 samples.

Results

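The response of Arabidopsis thaliana rosettes to 4 days without water was examined in the arrays labelled late day (18 h on the clock). Of the 24 Affymetrix arrays of the series, 6 carry that label: 3 from water-limited and 3 from well-watered plants, described by the submitters as biological replicates. All plants were wild type of the ecotype Columbia-0 (Col-0), 32 days old, grown under a 12 h photoperiod, and whole rosettes were taken. Water was withheld from the water-limited plants for the last 4 days after 28 days of normal watering, and the well-watered plants were watered throughout. The other 18 arrays hold the same pair of water regimes at midday (12 h), midnight (0 h) and pre-dawn (6 h), again with 3 arrays a group. The labels give neither soil nor leaf water content. A change is the mean of the 3 water-limited arrays minus the mean of the 3 well-watered arrays in log2 units, SE is its standard error from the limma fit of all 24 arrays, and a change counts as past the threshold at an adjusted p under 0.05. A probe set is the group of array probes for 1 target, and 11926 of the 22746 that are not controls reached a log2 value of 5 or more in at least 3 of the 24 arrays and were tested. The values are levels from whole rosettes, in which fewer cells of a type and less RNA per cell cannot be told apart.

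Plants that run short of water close their stomata, a response driven by the hormone abscisic acid (ABA), and take in less carbon dioxide. Many Arabidopsis transcripts also cycle over the day under the circadian clock, under light and under the daily rise and use of sugars and starch, so that the same shortage of water meets a different transcript pool at each time of day. Genes repressed by sugars rise when carbohydrate is scarce and are widely used as a readout of carbon status, and dehydration-responsive genes such as the COR and LEA families are the classical readout of ABA and of low water. The comparison asks how the rosette's transcripts differ between the water regimes within the label late day, and how that difference compares with the other times.

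Some facts about the 6 arrays bear on all values below. Known daily rhythms go against the time labels. GI (GIGANTEA), a clock component whose transcript in Arabidopsis is known to peak towards the end of the light period and to be low around dawn, lay at 2.32 log2 in both regimes in the arrays labelled late day, near the lowest value of the table (2.1961). It averaged 2.32 ± 0.01 in water-limited and 2.47 ± 0.25 in well-watered arrays labelled midday, 8.32 ± 0.06 and 8.07 ± 0.24 at midnight, and 8.52 ± 0.14 and 8.44 ± 0.09 at pre-dawn (SD, n = 3). COR27 and its relative COR28 (AT4G33980), evening genes of the clock and cold network, were likewise highest in the arrays labelled pre-dawn, at 9.54 and 9.40 log2 for COR27 and at 7.27 and 7.14 for COR28 in water-limited and well-watered arrays. Both regimes showed these profiles alike, so the comparison of regimes within the label pairs arrays of 1 label, and whether the label gives the clock hour of sampling was not tested. "Late day" and the other times are used below as labels. Water-limited replicate 2 lay far from its group in many probe sets, as described next, and the 3-prime minus 5-prime differences of control probe sets, a measure of RNA length, did not overlap between the regimes for GAPDH (1.51, 1.75 and 1.5 log2 in water-limited, 1.46, 1.38 and 1.26 in well-watered) or actin (4.14, 4.25 and 4.02 against 3.80, 3.88 and 3.93). For ubiquitin they overlapped (1.27, 1.05 and 1.18 against 1.24, 1.23 and 1.15). These differences were also added to the fit, and the resulting count is given with the calls.

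Water-limited replicate 2 was more than 1 log2 above or below both other arrays of its group in 624 of 11926 probe sets (5.23%). In the other 23 arrays of the series this count lay between 14 and 289, with 62 for water-limited late-day replicate 1 and 196 for replicate 3. The mean variance within the water-limited late-day group was 0.1773 log2 squared, against 0.0824 in the well-watered late-day group and 0.0728 to 0.1079 over all 7 groups other than water-limited late day. Correlations between array pairs across probe sets were 0.9534, 0.9777 and 0.9313 for water-limited arrays (replicates 1 and 2, 1 and 3, 2 and 3), against 0.9758, 0.978 and 0.9821 for well-watered arrays. Of the 624 probe sets, replicate 2 was the high array in 174 and the low array in 450. It lay above all well-watered arrays in 128 of the 174, and below all of them in 433 of the 450.

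**Figure D1:**
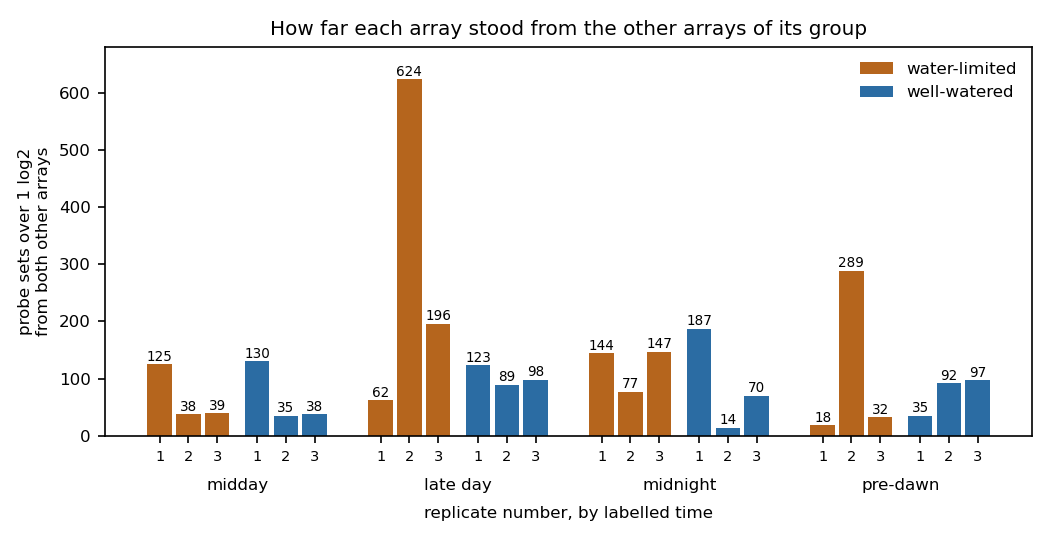
Number of tested probe sets in which each of the 24 arrays lay more than 1 log2 above or below both other arrays of its group (vertical axis), by labelled time and replicate, with water-limited arrays in brown left of well-watered arrays in blue. Water-limited late-day replicate 2 reached 624 and the next highest array, water-limited pre-dawn replicate 2, reached 289.

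Past the threshold, 25 of 11926 probe sets (0.21%) differed between the regimes in late day, of which 4 rose (0.0335%) and 21 fell (0.176%). At an unadjusted p under 0.05 there were 1085 (9.1%), with 539 higher (4.52%) and 546 lower (4.58%) in water-limited arrays. The median change over all tested probe sets was 0.01 log2. Changes of at least 1 log2 numbered 61 upward and 122 downward, and those of at least 2 log2 numbered 8 and 15, so most large differences did not pass the test. The falls among them include chloroplast genes, described below, whose changes shrank without water-limited replicate 2. Those of rpl20, psbT and petD, for example, were -2.56, -2.52 and -2.3 log2, and -1.17, -0.95 and -1.75 without that array. In a fit that also held the 3 control differences, 11 passed, with 1 weight for each group of arrays (0.504 for water-limited late day and 0.711 to 1.401 for the other groups) 9 passed, and from the 6 late-day arrays alone none passed by limma although 794 had an unadjusted p under 0.05. Without water-limited replicate 2 the count was 26, of which 15 were among the 25. Other late-day arrays mattered more to the count, which was 11 when water-limited replicate 3 was left out, and 11 or 13 when replicate 1 or replicate 2 of the well-watered plants was.

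Only 6 of the 25 probe sets are assigned to exactly 1 gene, and 19 carry no gene in the annotation used here. AT2G20670, which encodes a DUF506-family protein and belongs to the sugar-repressed genes, had the largest named fall. Its log2 values were 5.0, 5.68 and 4.97 in water-limited arrays, against 8.23, 7.96 and 9.19 in well-watered arrays. Every water-limited array lay more than 2 log2 below every well-watered one, replicate 2 included. The change was -3.24 log2 (SE 0.50, adjusted p = 0.00361), or 9.46-fold lower, and it was -3.47 without replicate 2 (adjusted p = 0.00591). AT2G20670 passed the threshold without any 1 of the 24 arrays, as 8 of the 25 probe sets did, and was the only named gene that did. It missed the threshold with the covariates and in the late-day arrays alone.

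AT1G53430, which encodes a leucine-rich repeat receptor-like kinase, had 4.31, 3.62 and 4.57 log2 in water-limited arrays, against 5.09, 5.52 and 5.18 in well-watered arrays. The groups did not overlap, and replicate 2 was the lowest array. It fell by 1.09 log2 (SE 0.22, adjusted p = 0.0324), and without replicate 2 the change of -0.82 missed the threshold (adjusted p = 0.121). AT4G29950, a Rab GTPase-activating (TBC) domain protein, had 7.09, 6.97 and 7.08 log2 in water-limited arrays, against 8.05, 7.94 and 8.21 in well-watered arrays. Its arrays were tight within each regime, with SDs of 0.07 and 0.14, and it fell by 1.02 log2 (SE 0.20, adjusted p = 0.0318). AT4G05070, a wound-responsive family protein, had 8.88, 9.0 and 8.71 log2 in water-limited arrays, against 9.94, 9.59 and 9.65 in well-watered arrays. It fell by 0.87 log2 (SE 0.17, adjusted p = 0.0307), the smallest fall of the 4 named genes, with no overlap.

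Among the named genes 2 rose. AT5G53420, a CCT-motif family protein (the motif is shared with CONSTANS and the clock's pseudo-response regulators), had 8.15, 8.36 and 8.45 log2 in water-limited arrays, against 6.48, 6.96 and 6.88 in well-watered arrays. It rose by 1.54 log2 (SE 0.30, adjusted p = 0.0307), a 2.91-fold difference, and all 3 water-limited arrays were more than 1 log2 above the highest well-watered one. AT3G44610, a member of the AGC protein kinase family, had 5.77, 6.17 and 5.78 log2 in water-limited arrays, against 5.13, 4.88 and 4.89 in well-watered arrays. It rose by 0.94 log2 (SE 0.20, adjusted p = 0.0472), close to the threshold, and missed it without any 1 of 16 arrays. Without replicate 2, AT5G53420 had a change of 1.52 (adjusted p = 0.0684), AT3G44610 0.81 (0.142), AT4G29950 -0.99 (0.0854) and AT4G05070 -0.94 (0.0406). Each of these 4 genes and AT1G53430 missed the threshold in at least 5 of the 6 fits that left out 1 late-day array. AT5G53420, AT4G29950 and AT4G05070 passed without any 1 array of the other times.

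The unnamed probe sets included the largest rise of the 25, 247323_at, with 6.36, 5.59 and 6.98 log2 in water-limited arrays, against 4.94, 4.34 and 4.88 in well-watered arrays (change 1.59, SE 0.27, adjusted p = 0.00856). The other unnamed rise, 258198_at, had a change of 1.15 (SE 0.21, adjusted p = 0.0178). The largest fall of the 25, by 3.69 log2, was also of an unnamed probe set. The smallest p values of all tested probe sets in this comparison included those of 259244_at and 267545_at. The probe set 259244_at had 5.49, 5.17 and 4.84 log2 in water-limited arrays, against 6.45, 6.81 and 6.60 in well-watered arrays (change -1.45, SE 0.16, adjusted p = 0.000114). The probe set 267545_at had 4.29, 4.12 and 4.24 log2, against 5.50, 5.78 and 5.70 (change -1.44, SE 0.19, adjusted p = 0.00132). All 25 had no overlap between the regimes, which 13.5% of all tested probe sets shared, and none had a late-day array at the floor of the table. That floor is the lowest value of the whole table. Among the falls, 1 unnamed probe set read 3.75 log2 and another 4.68 in many arrays across groups, in each case including 1 water-limited late-day array. Whether such repeated values narrowed their SE was not tested. The 21 falls ranged from -3.69 to -0.83 log2 with a median of -1.23, and the 4 rises from 0.94 to 1.59. Of the 25, 22 changed by at least 1 log2. The probe sets nearest the threshold were an unnamed one just inside (adjusted p = 0.0491) and an unnamed one just outside (0.0528). Of the genes with a name, AT5G42760 and AT1G17860, a Kunitz-type trypsin inhibitor family gene, were nearest outside, both with an adjusted p of 0.0579 and with changes of -1.66 and -1.11.

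**Figure D2:**
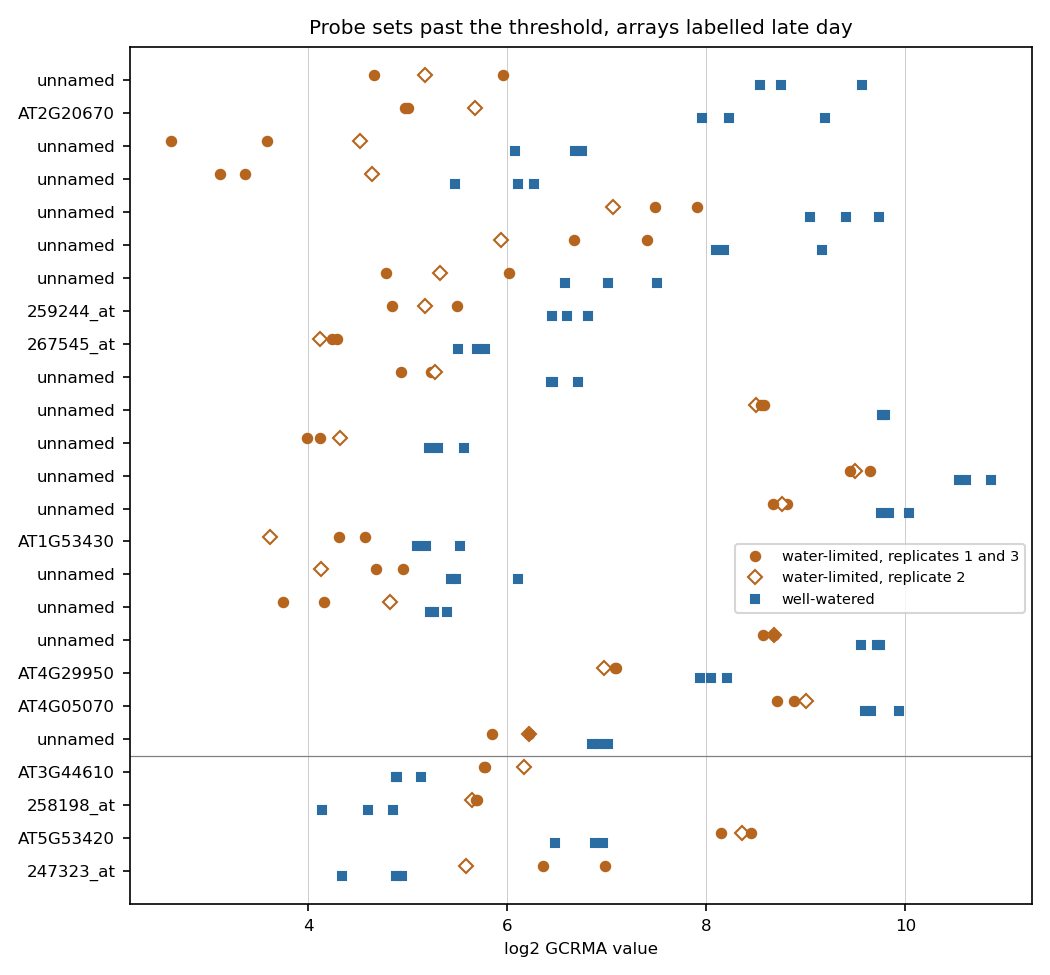
Log2 GCRMA values (horizontal axis) of the 25 probe sets past the threshold in the 6 late-day arrays, 1 probe set a line, with water-limited arrays in brown above well-watered arrays in blue and water-limited replicate 2 as an open diamond. A filled diamond marks an open one lying on a neighbouring point, the 4 lines under the rule are the rises, and no water-limited array overlaps a well-watered one in any line.

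The same 25 probe sets were followed at the other times, which share no arrays with late day. None of them passed the threshold at midday, where no probe set of the 11926 did by limma (593 had an unadjusted p under 0.05, 4.97%), 4 passed at midnight, where 0.386% of all tested did, and 3 at pre-dawn, where 7.24% did. Among the 21 falls the change was below 0 for 18 at midday, 18 at midnight and 19 at pre-dawn, with medians of -0.23, -0.58 and -0.33 log2. The regimes did not overlap in the downward direction for 4 of the 21 at midday, 12 at midnight and 8 at pre-dawn, against 4.49%, 9.48% and 14.3% of all tested probe sets. Both sets of counts include 5 falls that entered the test only through the well-watered late-day arrays, as described below. The share of changes below 0 over all tested probe sets at these times is not given here, so the counts describe these probe sets only. The 4 rises had median changes of 0.10 at midday, 0.31 at midnight and 0.45 at pre-dawn.

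AT2G20670 had water-limited values of 2.33, 3.07 and 2.25 log2 at midday, against 2.75, 3.04 and 4.2 in well-watered arrays. In the arrays labelled midnight it had 2.59, 3.65 and 3.17 log2, against 6.30, 6.01 and 3.77, a change of -2.22 (adjusted p = 0.0529). At pre-dawn both regimes were near the floor, with 2.2, 2.2 and 2.21 log2 against 2.2, 2.44 and 2.96. In both regimes this gene was thus highest in the arrays labelled late day, where its change was also largest in size, though the tests of that difference were not passed. AT5G53420 behaved otherwise: in well-watered arrays its level was lowest in late day, at 6.77 ± 0.26 log2, and its change was 0.51 at midday, 0.84 at midnight and 1.22 at pre-dawn, where it passed the threshold (adjusted p = 0.0187). For AT4G29950 and AT4G05070 the changes at midday, midnight and pre-dawn were -0.22, -0.64 and -0.57, and -0.07, -0.33 and -0.38, none past the threshold. Those of AT3G44610 were 0.17, 0.47 and 0.26.

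Of the 21 falling probe sets, 5 (all unnamed, 267545_at among them) entered the test only through the well-watered late-day arrays, since fewer than 3 other arrays reached 5 log2, so that a high well-watered level in late day was a condition of their being tested. Among the other 16, AT2G20670 included, 10 had their highest well-watered group mean in late day. This count describes these probe sets only, because the well-watered late-day arrays enter both the falls and the ranking.

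**Figure D3:**
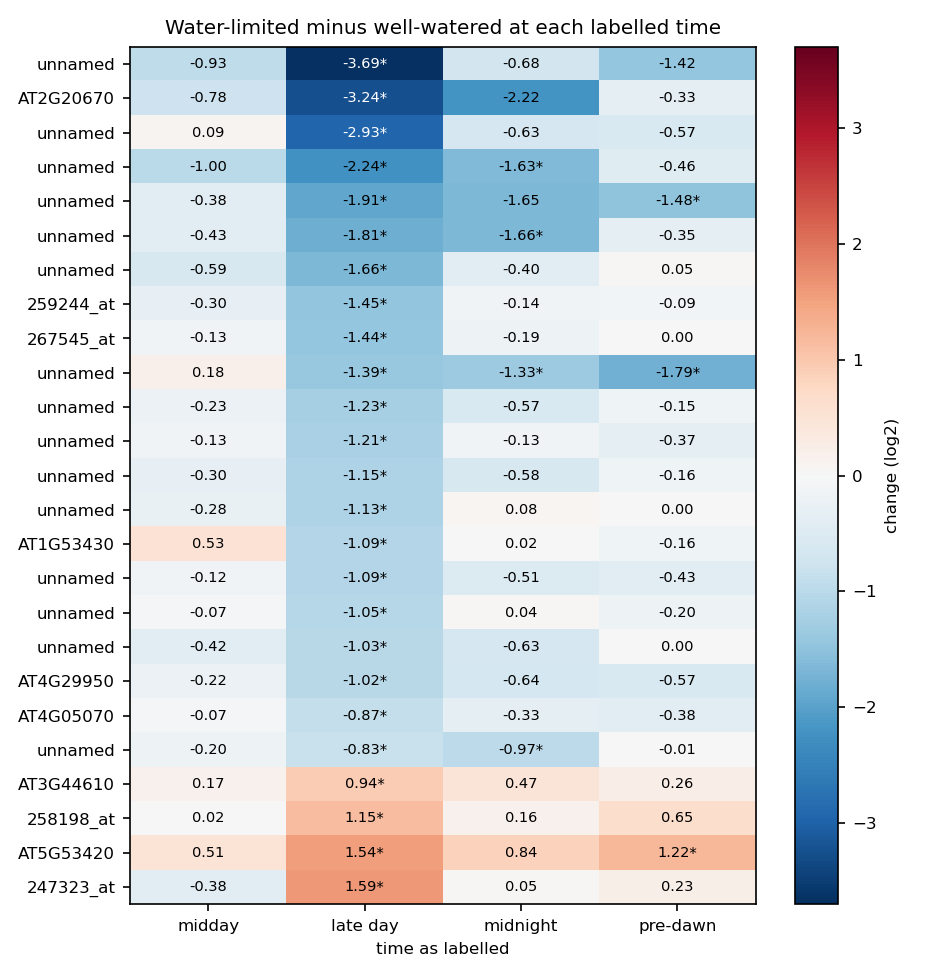
Change in log2 (water-limited minus well-watered, colour and printed value) of the 25 probe sets past the threshold in late day, 1 a line, at each of the 4 labelled times. Stars mark an adjusted p under 0.05 at that time: 25 in late day, none at midday, 4 at midnight and 3 at pre-dawn.

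Whether the late-day change differs from the mean of the changes at the other 3 times was tested directly, and only 2 of 11926 probe sets (0.0168%) passed, with 825 (6.92%) at an unadjusted p under 0.05. They were 259244_at, with a difference of -1.27 log2 (SE 0.18, adjusted p = 0.00864), and 267545_at, with -1.34 (SE 0.22, adjusted p = 0.0328). Their changes at midday, midnight and pre-dawn lay between -0.30 and 0.00. 267545_at is one of the 5 probe sets tested only because of the well-watered late-day arrays, while 259244_at reached 5 log2 in 17 of the 24 arrays. Under the stricter filter 267545_at was not tested and 1 probe set passed, 259244_at. None passed when replicate 2 of the well-watered late-day plants was left out (adjusted p = 0.0935 for 259244_at) or with the control covariates, whereas 10 passed with no filter, 19 when water-limited pre-dawn replicate 2 was left out and 6 when water-limited late-day replicate 2 was. No named gene passed this test. AT1G53430 differed by -1.22 (adjusted p = 0.128): its regimes were also apart at midday, in the other direction, with a change of 0.53. AT5G05140, a Mediator MED26-type family gene, differed by -0.87 (adjusted p = 0.143), and AT3G06780 by -0.94 (0.193). On the positive side were AT5G05250 with 1.08 (0.122), AT1G23050 with 1.25 (0.183) and Fes1B, a nucleotide exchange factor of Hsp70 chaperones, with 1.18 (0.183).

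Against single times, 1 probe set (0.00839%) differed between late day and midday, 6 (0.0503%) between late day and midnight, and 25 (0.21%) between late day and pre-dawn. The 1 against midday was that of AT5G05140, with water-limited values of 4.58, 4.73 and 5.07 log2 in late day against 5.28, 5.23 and 5.39 in well-watered arrays, a change of -0.51 there and of 0.97 at midday (difference -1.48, adjusted p = 0.0213). AT2G20670 differed between late day and midday by -2.46 (adjusted p = 0.621) and between late day and pre-dawn by -2.91 (0.0767), neither past the threshold.

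Outside the threshold, the largest changes of named genes with no overlap and an unadjusted p under 0.01 give the following values. None of these genes passed in late day except AT2G20670 and AT5G53420, described above. ATA27, a beta-glucosidase known from anthers, had 4.53, 7.01 and 6.29 log2 in water-limited arrays, against 2.69, 4.47 and 2.70 in well-watered arrays (change 2.65, SE 0.87, adjusted p = 0.295). Each group spanned more than 1.5 log2, and no gene of the flower marker list has a probe set assigned to it alone in the annotation used here. AT4G33040 and AT5G11930 encode CC-type glutaredoxins, a plant-specific class of small redox proteins that also bind TGA transcription factors. AT4G33040 had 7.98, 8.16 and 7.81 log2, against 6.95, 6.25 and 6.38 (change 1.46), and AT5G11930 had 7.20, 7.22 and 7.03, against 6.13, 5.36 and 6.00 (change 1.32). Both were tight in water-limited arrays, and both rose past the threshold at pre-dawn, by 2.39 (adjusted p = 0.00638) and 1.97 (0.00602). 

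AT1G64360 had a late-day change of 1.39 log2 and AT1G22160, an FLZ-type zinc finger gene, one of 1.21, and these 2 also rose past the threshold at pre-dawn (1.77 and 1.57). AT1G33970, an IAN-type GTP-binding protein gene, had 5.03, 5.09 and 5.05 log2 in water-limited arrays, against 2.93, 3.68 and 4.98 in well-watered arrays, so that the spread lay in the well-watered arrays. SHN3, an AP2/ERF factor of the wax and cutin pathway, had a change of 1.19, AT5G40690 one of 1.18 and AT5G56380, an F-box gene, one of 1.15.

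Among the largest negative changes, AT1G49500 had 9.53, 10.14 and 9.26 log2 in water-limited arrays, against 11.79, 11.39 and 11.71 in well-watered arrays (change -1.99, adjusted p = 0.15), and fell past the threshold at pre-dawn (-1.86, adjusted p = 0.0401). AT3G28220, a TRAF-like family gene, had 6.54, 7.42 and 6.78 log2, against 8.02, 8.67 and 10.24 (change -2.06), and AT5G19120, an aspartyl protease family gene, had 8.19, 8.58 and 8.22, against 9.97, 9.69 and 10.30 (change -1.66). AT4G37180, a GARP-type transcription factor gene, had a change of -1.62 in late day (adjusted p = 0.0895) and fell past the threshold at midnight (-1.87, adjusted p = 0.0331). JAL33, a jacalin-related lectin, had 3.75, 3.74 and 2.67 log2, against 4.60, 5.57 and 5.18 (change -1.73, adjusted p = 0.0895). AT1G31690, a copper amine oxidase gene, had a change of -1.78 and AT5G42760, a leucine carboxyl methyltransferase family gene, one of -1.66 (adjusted p = 0.0579). The changes of JAL33, AT1G31690 and AT5G42760 at the other times lay between -0.58 and 0.37.

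PYK10, an ER-body beta-glucosidase that is abundant in roots, had 5.73, 5.28 and 4.59 log2 in water-limited arrays, against 6.80, 7.16 and 7.60 in well-watered arrays (change -1.99, SE 0.58, adjusted p = 0.193). It is also a root marker. Of the 6 root markers, 3 have a probe set assigned to them alone in the annotation used here. EXPA7 and EXPA18, which define root hairs, lay at or within 0.2 log2 of the floor in all 6 arrays. The log2 of the summed level of the 3 markers ranged from 5.06 to 5.96 in water-limited and from 6.91 to 7.67 in well-watered arrays, nearly all of it PYK10. Their part in other results was not tested. The green leaf markers were high in all arrays, with RCA (Rubisco activase) at 14.24 to 14.61 log2 in water-limited and 14.42 to 14.62 in well-watered arrays. Of the guard cell markers FMA (FAMA) had 6.03, 5.19 and 6.22 log2, against 5.80, 6.21 and 6.21, and MUTE was at or near the floor. No seed marker has a probe set assigned to it alone in that annotation.

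Pathway lists were read for the members with a probe set assigned to 1 gene. The other members are not shown to be absent from the array, since 8730 of 22746 probe sets carry no gene in this annotation. The 31 pathway and 5 marker lists hold 526 loci, of which 101 have such a probe set and 82 were tested. Only 2 of those passed the threshold, AT2G20670 downward and AT5G53420 upward (0.21% of all tested probe sets passed). The lists were chosen with earlier results of these data known, so these 2 calls are not a test of the lists against that share. Of the sugar-repressed genes 2 were tested. Beside AT2G20670, AT3G15450, an aluminium-induced family protein gene with the same regulation, had 10.12, 10.39 and 9.99 log2 in water-limited arrays, against 11.22, 11.26 and 11.53 in well-watered arrays. The groups lay more than 0.8 log2 apart, and the change of -1.17 (SE 0.25, adjusted p = 0.0651) missed the threshold by a little. AT3G15450 also fell at the other times. By limma it passed at midnight (-1.17, adjusted p = 0.0459) and pre-dawn (-0.84, adjusted p = 0.049), but not at midday (-0.69, adjusted p = 0.966). 

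The CC-type glutaredoxins had changes of both signs. Of 10 tested members none passed the threshold by limma, 6 had an unadjusted p under 0.05 (9.1% of all tested did), and those 6 were also the ones with no overlap, 3 higher (7.29% of all tested) and 3 lower (6.17%). The higher ones were AT3G62960 (6.26, 5.05 and 6.02 log2, against 3.99, 4.45 and 4.09, change 1.60) and the 2 described above. The lower ones were AT4G15660 (change -1.42), AT3G62950, also called GRXC11 (5.52, 4.65 and 4.37 log2, against 6.27, 6.11 and 6.37, change -1.40), and AT2G30540 (5.33, 5.04 and 4.97 log2, against 6.34, 6.12 and 6.2, change -1.11). The smallest adjusted p of the list was 0.15, for AT3G62950. The list's median was 0.18, against 0.01 over all tested probe sets. Close copies in this family can share probe signal, which was not tested.

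Of the 3 tested members of the nitrogen list and the 3 of the gibberellin, brassinosteroid and cytokinin list, none passed the threshold by limma. In the nitrogen list 1 was higher and 1 lower at an unadjusted p under 0.05, and in the other list 2 were lower (9.1% of all tested probe sets had such a p). The regimes did not overlap for 1 gene of the nitrogen list and 2 of the other, all lower in water-limited arrays (6.17% of all tested probe sets were). AT1G25550 (HHO3), a nitrate-inducible repressor of the GARP family, had 7.60, 7.60 and 7.17 log2 in water-limited arrays, against 8.44, 8.39 and 8.57 in well-watered arrays (change -1.01, adjusted p = 0.419). ASPGB1, an asparaginase that releases nitrogen from asparagine, had a change of 0.65 (adjusted p = 0.406), and AT1G68670 (HHO2), of the same family as HHO3, one of -0.29 (adjusted p = 0.82), both with overlap. ARR15, a cytokinin-induced response regulator, had 5.12, 5.0 and 4.40 log2, against 6.04, 5.36 and 5.82 (change -0.90, adjusted p = 0.291). UGT76C2, a cytokinin N-glucosyltransferase, had 6.22, 5.90 and 5.94 log2, against 7.08, 6.70 and 6.80 (change -0.84, adjusted p = 0.219). The related response regulator RR16 overlapped between the regimes, with a change of 0.25. 

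The dehydration-responsive list had 4 tested members, none past the threshold and none at an unadjusted p under 0.05. COR15A, a chloroplast-stroma protective protein, had 5.17, 7.72 and 5.65 log2 in water-limited arrays, against 5.95, 6.95 and 9.34 in well-watered arrays (change -1.23, SE 0.65). LTI30, a dehydrin, had 4.55, 8.32 and 6.31 log2, against 5.51, 5.45 and 7.91 (change 0.10, SE 0.69). Both regimes held 1 array far above its group, water-limited replicate 2 and well-watered replicate 3. COR15B (change -0.23) and COR47 (-0.04), another dehydrin, were closer, and replicate 2 was more than 1 log2 above both other water-limited arrays in COR15A, COR15B and LTI30, 3 of the 4 genes. Without replicate 2 the median of the list was -0.76, against -0.14 with it. The lists for ABA synthesis, ABA receptors, the clade A phosphatases of ABA signalling, aquaporins, jasmonate and heat shock had no tested member here. None of their genes has a probe set assigned to it alone in the annotation used.

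Genes of the photosynthetic apparatus encoded in the nucleus differed little. Among 7 tested, 6 changes lay between -0.26 and -0.06 log2, and LHCB4.3, a minor antenna isoform, had 9.33, 9.75 and 9.28 log2 in water-limited arrays, against 8.89, 9.16 and 8.75 in well-watered arrays (change 0.52, SE 0.16, adjusted p = 0.247), while its relatives LHCB4.1 and LHCB4.2 had changes of -0.10 and -0.26. Calvin cycle genes (2 tested, PRK -0.14 and SBPASE -0.19) and chlorophyll synthesis genes (CHLM -0.25 and PORB -0.37) did not pass. Starch genes ranged from -0.20 to 0.55 over 4 tested members. SWEET13, a sucrose exporter, had 7.58, 7.54 and 7.61 log2, against 7.11, 6.25 and 6.33 (change 1.01, adjusted p = 0.663), and IAA29, an auxin-response repressor, 6.86, 7.24 and 6.92, against 6.94, 5.77 and 5.89 (change 0.81, adjusted p = 0.327). AT4G27900, a further CCT-motif gene, had 8.56, 8.42 and 8.75 log2, against 7.96, 7.90 and 7.77 (change 0.70, adjusted p = 0.293), and AT1G07050 of the same list was near the floor.

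In the senescence and autophagy list 9 of 10 changes were positive (52.4% of all tested were), with a median of 0.31. None passed the threshold by limma, and 1 had an unadjusted p under 0.05, a share near the 9.1% of all tested probe sets. The regimes did not overlap for 4 of the 10, all higher in water-limited arrays (7.29% of all tested probe sets were). AT2G25625, the chloroplast vesiculation gene, had 6.14, 7.12 and 6.40 log2 in water-limited arrays, against 5.12, 5.51 and 5.96 in well-watered arrays (change 1.02, adjusted p = 0.515). APG8A, an ATG8 protein of the autophagosome, had 8.38, 9.30 and 8.36 log2, against 8.27, 8.05 and 8.35 (change 0.46). Replicate 2 was the highest of the water-limited arrays in both, and without it the median of the list was 0.10. Flavonoid and anthocyanin genes had a median of 0.23 over 6 tested members, with UF3GT the highest at 0.71, and glucosinolate genes lay between -0.05 and 0.01 over 3. The stress transcription factors STZ, WRKY6 and WRKY53 had changes of -0.73, -0.36 and -0.30, and the iron-response genes PYE and AT1G47400 of 0.01 and -0.05.

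**Figure D4:**
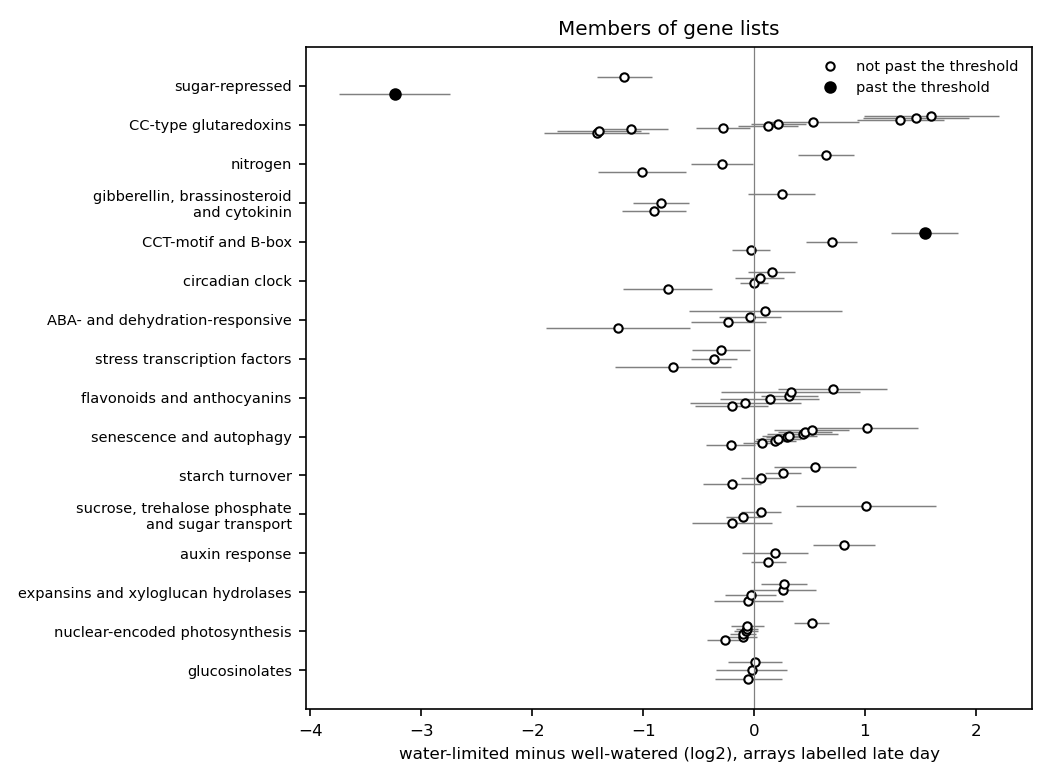
Late-day change in log2 (water-limited minus well-watered, horizontal axis) of each tested member of 16 gene lists, 1 point a gene, with bars of 1 SE on either side. Filled points mark AT2G20670 at -3.24 and AT5G53420 at 1.54, the only members past the threshold, and the CC-type glutaredoxins run from -1.42 to 1.60.

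The chloroplast genome stood apart in water-limited replicate 2. It encodes core subunits of the photosystems, the cytochrome b6f complex, the ATP synthase and the NDH complex, along with its own RNA polymerase and ribosomal proteins. Of its 66 tested genes, 45 (68.2%) were more than 1 log2 below both other water-limited arrays in replicate 2, against 3.41% of the other probe sets, while the other 405 of the 450 probe sets low in that array lie outside the chloroplast list. The median over the 66 genes was 11.57, 9.38 and 11.45 log2 in the water-limited arrays, against 11.75, 11.55 and 11.42 in the well-watered arrays. By this median over all genes, replicates 1 and 3 lay inside the range of the well-watered arrays, and replicate 2 below it. Within each complex, however, the median of replicate 3 also lay below all 3 well-watered medians. It was 8.18 log2 for cytochrome b6f (well-watered 9.26 to 10.46), 10.42 for the NDH complex (11.2 to 12.27) and 11.27 for photosystem II (11.34 to 11.75). Replicate 1 was more than 1 log2 above both other water-limited arrays in 15 of the 66 genes.

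psaC, a photosystem I subunit that holds iron-sulfur clusters, had 11.21, 5.76 and 10.49 log2 in water-limited arrays, against 11.74, 11.36 and 11.00 in well-watered arrays. psaA, a core subunit of photosystem I, had 11.76, 6.90 and 11.33, against 12.15, 11.62 and 11.54. psbD, the D2 core protein of photosystem II, had 10.94, 5.99 and 10.40, against 11.44, 10.61 and 10.74. In each of these replicate 2 was more than 4 log2 below the nearer water-limited array, while the other 2 lay near the well-watered arrays. The RNA polymerase subunit rpoC1 showed the same, with 9.60, 4.61 and 8.84 log2, against 9.93, 9.70 and 9.48. The gaps of replicate 2 were -3.85 log2 for psbB, -3.67 for psbT and -3.38 for the ribosomal protein gene rpl20. 

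All complexes were involved to some degree. Replicate 2 was low by more than 1 log2 in 4 of 5 photosystem I genes, 9 of 15 photosystem II genes, 2 of 6 cytochrome b6f genes, 4 of 6 ATP synthase genes, 6 of 9 NDH genes, 3 of 3 RNA polymerase genes, 10 of 14 ribosomal protein genes and 7 of 8 others. Some chloroplast genes did not share it: psbM had 14.26, 14.27 and 14.32 log2, against 14.19, 14.27 and 14.12, atpB had 14.78, 14.50 and 14.80, against 14.75, 14.85 and 14.77, and psbJ had 11.59, 11.95 and 11.42, against 11.64, 11.43 and 11.35. With all arrays 60 of the 66 changes were negative (47.6% of all tested were), with a median of -0.94. By limma none passed the threshold, and 34 had an unadjusted p under 0.05 (9.1% of all tested did). Without replicate 2 the median was -0.20, 1 gene had an unadjusted p under 0.05 and none passed. psbA, the D1 protein of photosystem II, was the only chloroplast gene among the 10 largest negative changes with no overlap and an unadjusted p under 0.01, with 12.64, 9.45 and 11.64 log2 in water-limited arrays, against 13.61, 13.05 and 12.70 in well-watered arrays (change -1.88, or -0.98 without replicate 2). The assembly factor gene ycf3 had a larger change with no overlap (-2.34, or -1.12 without replicate 2) but an unadjusted p of 0.0134, with 7.13, 2.87 and 5.97 log2 in water-limited arrays, against 8.35, 7.31 and 7.34 in well-watered arrays. It is named here after its values were seen. 

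Low chloroplast transcripts in 1 array were not limited to this group. In water-limited pre-dawn replicate 3, 23 chloroplast genes lay more than 1 log2 below the other arrays of the group, and in well-watered pre-dawn replicate 2, 29 did, whereas the other 21 arrays had at most 7. Whether the gap in late-day replicate 2 lies in the plants, in their RNA or in the labelling was not tested.

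**Figure D5:**
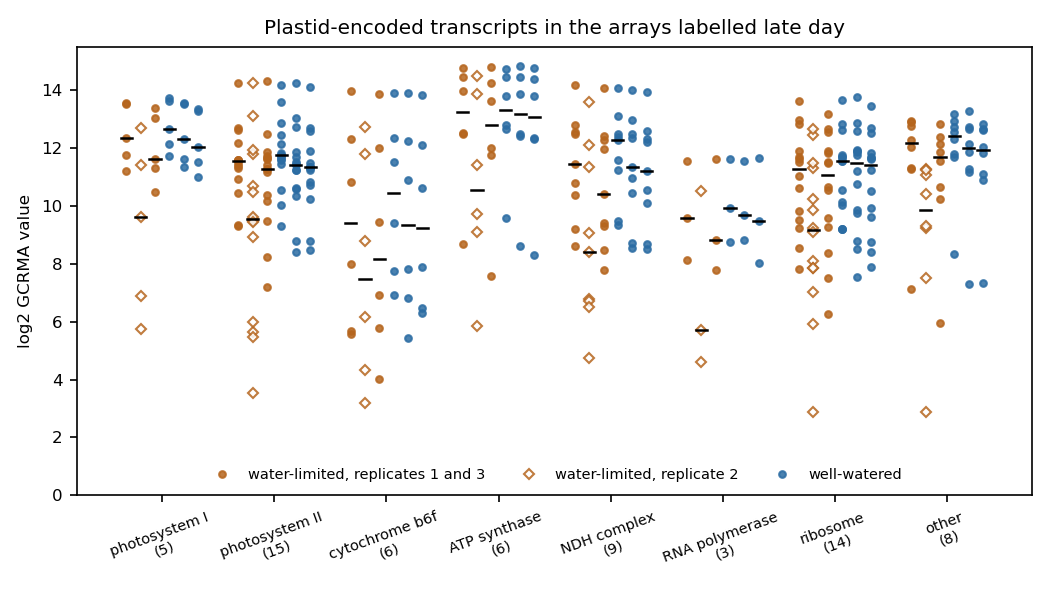
Log2 GCRMA values of the 66 tested chloroplast-encoded genes in the 6 late-day arrays, by complex with the number of genes in parentheses, in the order water-limited replicates 1, 2 and 3 (brown, replicate 2 as open diamonds) and well-watered replicates 1, 2 and 3 (blue); black bars are medians. The median over all 66 genes was 9.38 in water-limited replicate 2 and 11.42 to 11.75 in the other 5 arrays.

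The 8 named genes in which replicate 2 lay furthest above its group gave the following values, none past the late-day threshold. BSMT1, which makes methyl salicylate, had 2.2, 6.21 and 2.2 log2 in water-limited arrays, against 2.2 in all 3 well-watered arrays, so that 5 of 6 arrays were at the floor. JRG21, a jasmonate-induced oxygenase, had 3.76, 7.58 and 4.59, against 3.65, 5.73 and 7.06, and AT5G05600, another jasmonate oxygenase gene, 4.88, 7.22 and 4.89, against 4.80, 6.23 and 8.22. PDF1.2, a plant defensin, had 4.44, 9.30 and 6.99 log2, against 6.93, 6.74 and 9.30. In JRG21, AT5G05600 and PDF1.2, as in COR15A and LTI30, well-watered replicate 3 was the highest array of its own group. It was the highest well-watered array in 96 of the 174 probe sets in which water-limited replicate 2 was the high array. The share over all tested probe sets is not given here, so this count describes these probe sets only. Well-watered replicate 3 lay more than 1 log2 above both others of its group in 79 tested probe sets, against 29 and 42 for replicates 1 and 2.

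AT1G26390, a berberine bridge enzyme-like gene, and AT3G51660, a relative of animal macrophage migration inhibitory factor, had the same pattern, with 4.27, 7.31 and 4.80 log2, against 4.60, 4.54 and 6.95, and with 4.18, 6.72 and 3.3, against 4.25, 3.43 and 6.38. AT1G66850, a lipid-transfer protein family gene, and AT1G68875 had another one: AT1G66850 had 6.18, 10.24 and 7.37 log2, against 5.13, 7.53 and 3.87, and AT1G68875 had 5.26, 7.74 and 5.53, against 2.64, 5.25 and 3.39. In these 2, as in ATA27, replicate 2 was the highest array of each regime. Outside the chloroplast genome, AT2G17240 had the largest gap downward among named genes, with 8.77, 4.15 and 7.35 log2, against 8.27, 7.37 and 8.75.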

How the data were processed

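The deposited table gives 1 log2 value per probe set and array, which the authors computed with GCRMA, per the submitters' processing notes (version not given in the sources used here). Trizol extracts were labelled with biotin, per the labels' protocols. Of 22810 probe sets, 64 controls were set aside. Of the remaining 22746, 13513 are assigned to 1 gene, 503 to several and 8730 to none, by the platform annotation with symbols from TAIR10.1 (names only). Array medians were 4.66 to 4.86 log2, and 25.5% of values lay within 0.001 of the lowest, 2.1961. GCRMA's normalization across arrays presumes that most probe sets are unchanged.

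Values were fitted as deposited in limma 3.58.1 (R 4.3.3) with a mean for each of 8 groups of 3 arrays (16 residual and 4.57 prior degrees of freedom), two-sided, with Benjamini-Hochberg adjustment over 11926 probe sets. In simulated data with this design, 76.5% of 200 probe sets changed by 1 log2 were recovered, and 100% of 200 changed by 2 log2. The simulated noise had 1 spread per probe set in all 8 groups. The real water-limited late-day group had a mean variance of 0.1773 log2 squared, against 0.0728 to 0.1079 in the other groups. These shares therefore do not give the recovery in the late-day comparison. Precision is limited by the number of arrays. No 2 arrays had more than 1.5% identical values. The labels give no separate growth of replicates, so p-values measure the spread between these arrays.

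Named genes are those past the threshold with 1 gene assigned; the 10 largest changes each way with no overlap and an unadjusted p under 0.01; the genes with the smallest p for late day minus the other times, 3 each way; the 8 largest gaps of water-limited replicate 2 each way; and members of gene lists. At most 2 unnamed probe sets each way are given. The members and lists were chosen with earlier results of these data known. Other genes named were chosen after their values were seen. Deviations from the group mean correlated at 0.035, -0.3 and 0.075 between late-day arrays of equal replicate number. Between those of unlike number the correlations ran from -0.403 to 0.372. With 3 arrays a group these values cannot decide whether equal numbers pair the arrays. Alternatives were 2 other filters, 2 scalings, moderation, group weights, a replicate block, 1-gene probe sets, late-day arrays alone and each array left out. Covariates from control probe sets, the late-day arrays without water-limited replicate 2 and the settings for the scatter were added after seeing the data. Promoter sequences were not analysed here.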

Additional observations from a re-analysis of the deposited data

Results flagged for a closer look

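The probe sets 259244_at and 267545_at stood out because their late-day change differed from the mean change at the other 3 times, by -1.27 and -1.34 log2 (limma, adjusted p = 0.00864 and 0.0328). Each fell in late day in all 3 water-limited arrays relative to all 3 well-watered ones. 267545_at was tested only because the well-watered late-day arrays reached 5 log2, with 1 other array, and its difference missed the threshold without any 1 of several arrays. 259244_at reached 5 log2 in 17 of 24 arrays and missed it without well-watered late-day replicate 2 (adjusted p = 0.0935).

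AT1G53430 stood out because its regimes were separated in opposite directions in late day (-1.09) and at midday (0.53). The difference between these changes was -1.63 log2 and did not pass (adjusted p = 0.134). AT3G28220 was separated likewise, with -2.06 in late day and 1.16 at midday, a difference of -3.23 (adjusted p = 0.621).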

How the results depend on the processing

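The 25 late-day probe sets past the threshold kept their direction under every setting fitted, but most settings could not have changed it. With no overlap between the regimes in any of the 25, leaving out 1 array cannot reverse a change. Filters, moderation, group weights and the replicate block leave the change itself as it is. Only the scalings and the covariates could have reversed one. The number of calls was 21 with median centring, 23 with quantile normalization, 35 with no filter, 26 with trend and robust moderation and 22 with a change of at least 1 log2. Of these calls 21, 22, 15, 22 and 22 were among the 25. The number was 11 with control covariates, 9 with group weights, 11 with the stricter filter (mean of at least 6 log2) and 1 among probe sets with 1 gene. Of these 8, 9, 11 and 1 were among the 25. It was 0 by limma for the late-day arrays alone, both with and without water-limited replicate 2 (794 and 1134 at an unadjusted p under 0.05). Leaving out 1 array gave 11 to 33, the lowest counts being those without water-limited replicate 3 (11) and well-watered replicates 1 (11) and 2 (13) of late day. Of these 9, 10 and 12 were among the 25. Without well-watered late-day replicate 3, 12 of 19 calls were. With the replicate block the count was 13, of which 11 were among the 25, and no call of the late-day difference remained (0). Whether equal replicate numbers pair the arrays was not settled. The 2 calls of late day minus the other times became 0 with covariates, 1 with group weights, 1 with median centring, 10 with no filter, 0 among probe sets with 1 gene, 1 with the stricter filter, 1 with trend and robust moderation, and 0 to 19 when 1 array was left out. The 2 calls among listed genes became 0 with covariates and in the late-day arrays alone, 1 with group weights, with no filter, among probe sets with 1 gene and with the stricter filter, and 1 to 3 when 1 array was left out. The count of 624 for water-limited replicate 2 was 395 under the stricter filter, which tests fewer probe sets. Other causes were not tested. Over the named genes, the unnamed calls and the settings, 1461 results kept their side of the threshold, 255 lost it, 9 gained it and 0 reversed. The 1461 include genes that were outside the threshold and stayed outside, whereas only calls could lose it. These totals therefore do not measure how stable the calls were. For the late-day changes most settings could not bring a reversal, as described above.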
